A study of Homo sapiens with 12 samples.

Results

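A microRNA hairpin is cut by DICER1 into a short duplex, and the strand from its left side (the 5p arm) or its right side (the 3p arm) is then loaded into an Argonaute protein while the partner strand is usually lost. Which strand is kept is known to depend on the base at the 5′ end of each strand and on how firmly that end is paired. The ratio of 5p to 3p reads of a hairpin thus depends in part on arm choice and on the stability of each arm. Whether both strands were captured equally well in a library was not tested, so a ratio here is one of reads. Target-directed microRNA degradation (TDMD) is a process in which a long pairing between a transcript, the trigger, and a loaded miRNA leads to the loss of that miRNA, and the ubiquitin ligase receptor ZSWIM8 is known to take part in it.

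The miRNAs described here are the arm pairs numbered miR-301 to miR-999 in HEK293T cells, a line derived from human embryonic kidney. They were chosen from the miRNA count table as names with both a 5p and a 3p row and at least 60 reads in each arm summed over the 6 small RNA libraries, with miR-335, miR-424, miR-450, miR-451, miR-486, miR-503 and miR-542 left out. This rule gave 34 pairs, or 68 arms, of the 88 pairs of the whole table that reach 60 reads in each arm. Of 90 pairs with both rows in this number range, not counting the numbers left out, 56 did not qualify because an arm had fewer reads. The choice used the read sums over all groups, so a read sum is a description here and no result. Just inside the threshold were miR-301a, with 64 reads of its 3p arm, and miR-629, with 88 reads of its 3p arm. Just outside were miR-548b, with 53 reads of its 3p arm, and miR-766, with 45 reads of its 5p arm.

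Every group was HEK293T cells transfected with 2 µg of a plasmid that encodes GFP and harvested after 48 h. The control group received GFP without a trigger as far as the labels tell, the BCL2L11 group received GFP with the BCL2L11 trigger behind it, and the TRIM9 group received GFP with the TRIM9 trigger behind it. According to the study design the triggers were made against miR-221/222 and miR-218, so none of the 34 pairs is an intended target, and the triggers were expressed from a plasmid and not from their own genes. Each group had 2 small RNA libraries (18 to 40 nt) and 2 poly-A libraries, which the design text calls biological replicates. The labels name PEI or lipofectamine as the carrier without tying either to a sample. The titles number the libraries 1 to 6, replicate 1 of each group being among 1 to 3 (library set 1) and replicate 2 among 4 to 6 (library set 2).

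Between 5018875 and 6091151 reads per small RNA library were counted for miRNAs, and the 34 pairs made up 1.72% to 2.74% of them. No 2 libraries held the same counts. Of the fixed HEK293 markers, IRS4, LIN28B, VIM and KRT18 were detected in all 6 poly-A libraries and PAX2, also on that list, was near 0 at 0.0886 to 0.613 FPKM. IRS4 stood at 8.61 to 15.97 FPKM in set 1 and at 65.4 to 80.3 FPKM in set 2, so the sets differed in a gene typical of the line. Of the blood markers, PTPRC (in both of its gene entries) and HBB were listed at 0 in all 6 libraries, whereas HBA1 was at 5.61 to 7.45 FPKM in set 1 and at 2.35 to 3.77 in set 2. The 3 fibroblast markers summed to 1.27 to 5.61 FPKM in set 1 and 1.86 to 2.03 in set 2, with COL1A1 above 0 in every library. The 2 liver markers, ALB and APOA1, were above 0 in every library and summed to 0.632 to 2.84 and 0.591 to 2.24. The 2 muscle markers summed to 2.94 to 5.75 and 2.06 to 5.14, nearly all of it ACTA1, with MYH7 at or near 0. The lymphocyte miRNA miR-150-5p had 158 reads in TRIM9 replicate 1 and 0 to 2 reads in each of the other libraries, and the liver miRNA miR-122-5p had 92 reads there against 21 to 40 elsewhere, while miR-142-3p (blood) had 1 to 3 reads and miR-133a-3p (muscle) 0 to 3 in every library. The part of these differences in the results below was not tested.

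Mature sequences from RefSeq (GRCh38.p14) were found by name for 63 of the 68 arms, giving both arms of 30 pairs. The arms without an entry were miR-301b-5p, miR-374a-5p, miR-425-5p, miR-505-5p and miR-505-3p. Below, capitals mark the seed (bases 2 to 8), the stretch that chooses targets. The first set shows pairs with a lopsided arm ratio, in which the abundant and the rare strand carry different seeds.
miR-629-5p: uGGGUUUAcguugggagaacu
miR-629-3p: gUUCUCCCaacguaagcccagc
miR-378a-5p: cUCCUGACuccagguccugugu
miR-378a-3p: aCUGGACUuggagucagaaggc
miR-582-5p: uUACAGUUguucaaccaguuacu
miR-582-3p: uAACUGGUugaacaacugaacc
The second set shows the 4 pairs whose ratio differed most firmly between the library sets.
miR-532-5p: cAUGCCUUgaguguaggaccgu
miR-532-3p: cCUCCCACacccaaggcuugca
miR-340-5p: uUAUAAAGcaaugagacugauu
miR-340-3p: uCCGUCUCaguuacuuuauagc
miR-361-5p: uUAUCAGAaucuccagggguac
miR-361-3p: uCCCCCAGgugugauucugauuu
miR-576-5p: aUUCUAAUuucuccacgucuuu
miR-576-3p: aAGAUGUGgaaaaauuggaauc
The third set shows the seed shared by 3 members, AGUGCAA, and the neighbours miR-500a and miR-501, whose seeds are shifted by 1 base on both arms.
miR-301a-3p: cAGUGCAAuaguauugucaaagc
miR-301b-3p: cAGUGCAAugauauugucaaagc
miR-454-3p: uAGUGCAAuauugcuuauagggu
miR-500a-5p: uAAUCCUUgcuaccugggugaga
miR-501-5p: aAUCCUUUgucccugggugaga
miR-500a-3p: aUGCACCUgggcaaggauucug
miR-501-3p: aAUGCACCcgggcaaggauucu

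The 34 pairs ran from nearly only 5p reads to nearly only 3p reads, and the arm in the lead hardly ever changed between libraries. The 5p arm led in 15 pairs and the 3p arm in 19, by the mean over the 6 libraries of log2 5p/3p (the log2 of 5p reads over 3p reads in a library, 0 meaning equal arms). In 32 of the 34 pairs the same arm led in all 6 libraries, and the exceptions were miR-339 and miR-942. The leading arm had at least 10 times the reads of its partner in 15 pairs (7 of them 5p, 8 of them 3p), between 2 and 10 times in 10 pairs, and less than 2 times in 9 pairs. Among the other 54 pairs, the 5p arm led in 30 and the leading arm reached 10 times its partner in 31. The median distance from equal arms was 2.84 on the log2 scale for the 34 pairs, against 3.45 over all 88. As the mean ratio over libraries is a description, no test was run on this difference.

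**Figure D1:**
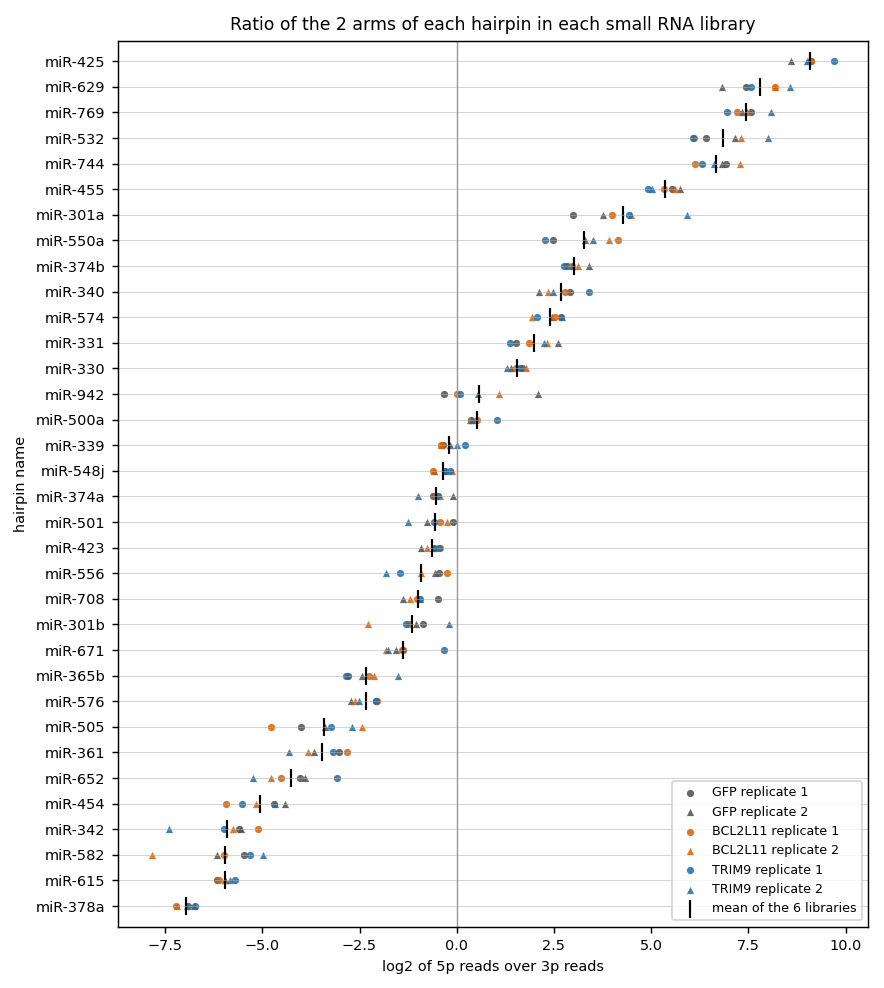
Each row is a hairpin and each point is the log2 of 5p reads over 3p reads in 1 small RNA library (circles replicate 1, triangles replicate 2, colours the 3 groups), with a bar at the mean of the 6. The pairs run from miR-425 at a mean of 9.09 to miR-378a at a mean of -6.95, and points of miR-339 and miR-942 alone lie on both sides of 0.

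At the 5p end stood miR-425, from the DALRD3 locus beside miR-191, with a mean log2 5p/3p of 9.09 ± 0.36 (SD, n = 6 libraries, as for all means ± SD below). Its 5p reads numbered 32045 and 17766 in the GFP libraries, 27518 and 18920 with the BCL2L11 trigger, and 31799 and 15469 with the TRIM9 trigger, where replicate 1 is given first here and below. Its 3p reads in the same order were 58 and 46, 50 and 36, and 38 and 30. The 5p arm thus had 386 to 837 reads for each 3p read, and the 5p arm was lower in replicate 2 of every group.

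The next pairs in this direction were miR-629 at 7.79 ± 0.64, miR-769 at 7.43 ± 0.39, miR-532 at 6.84 ± 0.77 and miR-744 at 6.68 ± 0.42. miR-629, which lies within the bounds of TLE3, a gene for a transcriptional corepressor, had 17 and 22 reads of its 3p arm in the GFP libraries, 11 and 10 with the BCL2L11 trigger, and 21 and 7 with the TRIM9 trigger. Its 5p reads were 2473 to 4010 per library, so its ratio rests on the few 3p reads. miR-744, within MAP2K4, a kinase of the stress-activated JNK and p38 pathways, had 15 to 33 reads of its 3p arm per library beside 1462 to 2495 of its 5p arm. miR-769, within CCDC61, had 17 to 45 reads of its 3p arm per library. In this order the means of miR-629, miR-769 and miR-532 each lay within the range of the next pair named. miR-425 stood above miR-629, miR-769, miR-532 and miR-744 in every library.

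At the 3p end stood miR-378a, from within PPARGC1B, which encodes a transcriptional coactivator of mitochondrial genes. Its 3p reads were 26860 and 28475 in the GFP libraries, 27681 and 28039 with the BCL2L11 trigger, and 30926 and 19909 with the TRIM9 trigger. Its 5p reads were 223 and 264, 186 and 192, and 291 and 164. The mean log2 5p/3p was -6.95 ± 0.21, ranging from -7.22 to -6.73, a narrow range for a ratio of this size. miR-378a was also the most abundant of the 34 pairs, with 163210 reads in all. With miR-425 and miR-423 it held 54.9% of the reads of the 34 pairs.

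Next came miR-615 and miR-582 both at -5.95, miR-342 at -5.90 and miR-454 at -5.07. miR-615, inside the HOXC cluster of homeobox genes, had the steadiest ratio of the 34, with an SD of 0.18 and a range from -6.16 to -5.70. miR-582, within PDE4D, which encodes a cyclic AMP phosphodiesterase, had the same mean and the widest spread, with an SD of 1.02. Its 5p reads were 35 and 21 in the GFP libraries, 24 and 7 with the BCL2L11 trigger, and 39 and 40 with the TRIM9 trigger, while its 3p arm stayed between 1270 and 1596 reads. The low value is that of BCL2L11 replicate 2 alone. For miR-342, within EVL, a regulator of actin filaments, TRIM9 replicate 2 stood apart with 4 reads of its 5p arm against 22 to 32 in the others.

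Closest to equal arms were miR-339 at -0.19 ± 0.25, miR-548j at -0.35 ± 0.21, miR-500a at 0.51 ± 0.27, miR-374a at -0.53 ± 0.29 and miR-501 at -0.56 ± 0.42. miR-339, within C7orf50, was led by its 3p arm in the GFP libraries (log2 5p/3p -0.36 and -0.16) and with the BCL2L11 trigger (-0.41 and -0.42). With the TRIM9 trigger it had 514 and 317 reads of 5p and 446 and 316 of 3p, and these were the 2 libraries in which its 5p arm led, the second by 1 read. miR-942, within TTF2, which encodes a transcription termination factor, had 28 and 34 reads of 5p and 35 and 8 of 3p in the GFP libraries, so its 2 control libraries fell on opposite sides of equality. It led with its 5p arm in 4 libraries, had equal arms in 1 (23 reads each), and with 317 reads in all was the least abundant pair. The most deeply read of the nearly equal pairs was miR-423, within NSRP1, a splicing regulator gene. It had 4904 to 7592 reads of 5p and 7415 to 10408 of 3p per library, and its 5p arm made up 34.7% to 42.4% of the pair.

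Other abundant pairs lay between these ends. miR-340 had 46760 reads of 5p and 7465 of 3p in all, miR-455 had 25491 and 628, and miR-576 had 4333 and 21681. miR-455, within the collagen gene COL27A1, had a mean log2 5p/3p of 5.36 ± 0.33. The remaining pairs had means between -4.26 (miR-652) and 4.26 (miR-301a).

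Pairs of this range that share a number, a locus or a 3p seed often differed in ratio. miR-301a had 1125 reads of 5p and 64 of 3p, a mean log2 5p/3p of 4.26 ± 0.98, whereas miR-301b had 99 and 225, a mean of -1.15 ± 0.68. miR-454, which lies with miR-301a inside SKA2, a gene for a spindle and kinetochore protein, had 186 and 6468, a mean of -5.07 ± 0.58. The 3p arms of these 3 carry the same seed, and their libraries did not overlap: the lowest value of miR-301a (3.0) was above the highest of miR-301b (-0.21), and the lowest of miR-301b (-2.29) was above the highest of miR-454 (-4.42). A further hairpin with this 3p seed, miR-130b, is outside the number range and had 16986 reads of 5p and 510 of 3p. Its mean log2 5p/3p of 5.22 (4.38 to 6.22) overlapped that of miR-301a. The 3p arms of miR-301a and miR-301b differ at 2 of 23 positions, and no source used here says how reads matching more than 1 miRNA were counted, so their split between these names is uncertain.

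The pair miR-374a and miR-374b, both inside FTX, a long noncoding RNA gene of the X-inactivation centre, also differed. miR-374b was led by its 5p arm at 3.01 ± 0.23 and miR-374a by its 3p arm at -0.53 ± 0.29, and their libraries did not overlap. Their 3p arms differ at 4 of 22 positions. In the cluster inside CLCN5, a gene for a chloride and proton exchanger, miR-532, miR-500a and miR-501 stand within 10 kb of each other on the plus strand of the X chromosome (hairpin starts 50003148, 50008431 and 50009722). Their mean ratios were 6.84, 0.51 and -0.56, so 3 hairpins of this locus ranged from nearly only 5p reads to a small lead of 3p reads. In miR-365b, the only miR-365 pair here, the mean was -2.33 ± 0.49, and its 3p sequence is identical to that of miR-365a-3p, which has no row of its own, so the 3p reads cannot be given to 1 hairpin. miR-550a comes from 3 loci on chromosome 7 and miR-548j is the only miR-548 hairpin here of 10 with both rows. Of the fixed cluster lists, the 14q32 cluster had 30 rows with 446 reads in all and no member, and the lists for the clusters of miR-302, miR-371, miR-363 and chromosome 19 had none either.

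By position, 33 of the 34 hairpin names lay within the bounds of another gene on the same strand, miR-331 being the exception. At least 8 had a further miRNA gene within 10 kb. Neighbours were sought among RefSeq hairpins alone, which lack some miRNA genes such as that of miR-501, so this count is a lower bound. The deposited transcript tables give no exon limits, so exon and intron were not told apart. The hairpin of miR-629 is at chr15:70079372-70079468 on the minus strand, that of miR-378a at chr5:149732825-149732890 on the plus strand and that of miR-582 at chr5:59703606-59703703 on the minus strand. miR-340 is at chr5:180015303-180015397 on the minus strand, miR-361 at chrX:85903636-85903707 on the minus strand and miR-576 at chr4:109488698-109488795 on the plus strand. miR-301a and miR-454 are at chr17:59151136-59151221 and chr17:59137758-59137872, both on the minus strand.

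In the 30 pairs with both sequences, the leading arm began with U in 17 and the partner arm in 6. An A began 8 of the leading and 9 of the partner arms, a C began 4 and 9, and a G began 1 and 6. In 12 pairs only the leading arm began with U or A, in 2 only the partner arm did, in 13 both did and in 3 neither did. In the 42 other pairs with both sequences the corresponding counts were 15, 9, 16 and 2. The first 5 bases held 2.1 G or C on average in the leading arms and 2.63 in the partner arms, against 2.19 and 2.36 in the 42 other pairs. The leading arm held fewer than its partner in 14 of the 30 pairs, as many in 11 and more in 5. In the 42 other pairs these counts were 21, 7 and 14. miR-532-5p, printed above, is a leading arm that begins with C. These are descriptions of which letters stand there, and they were not tested.

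The spread of a ratio between libraries was set beside its counting error. This error, the one that read numbers alone would give log2 5p/3p in 1 library, had a median of 0.223 over the 34 pairs, and the SD over the 6 libraries had a median of 0.442. The SD was above the counting error in 32 of the 34 pairs and more than 2 times it in 19, against 82 and 43 of all 88, so this excess was common in the table. It was below in miR-615 and miR-548j. Among the 14 pairs with at least 600 reads in each arm the largest SDs were those of miR-361 (0.56), miR-671 (0.54), miR-340 (0.46), miR-501 (0.42) and miR-455 (0.33). miR-340 moved 10.2 times its counting error, miR-423 7.53 times, miR-576 5.11 times and miR-361 5.07 times. In miR-671 the library TRIM9 replicate 1 stood alone at -0.34, and the other 5 lay between -1.81 and -1.39.

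**Figure D2:**
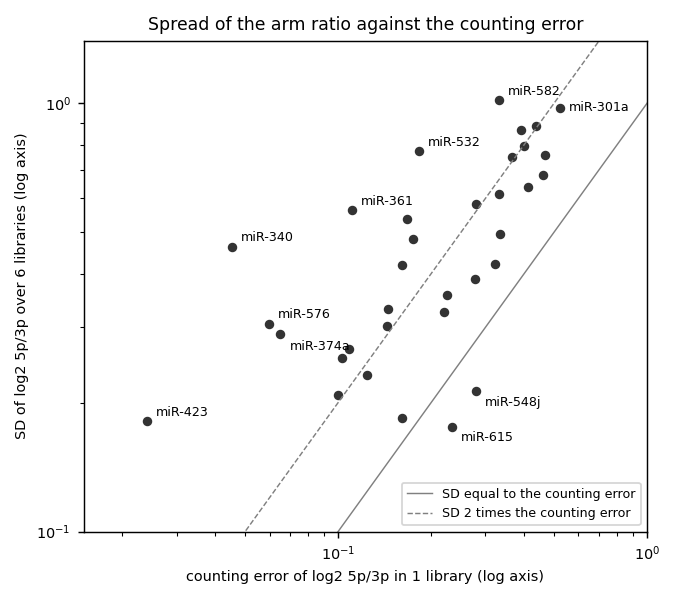
Each point is a pair, with the counting error of its log2 5p/3p in 1 library on the x axis and the SD over 6 libraries on the y axis, both on log axes. The solid line marks an SD equal to the counting error and the dashed line an SD of 2 times that error; miR-340, miR-423, miR-576 and miR-361 lie far above both, and miR-615 and miR-548j below the solid line.

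Whether a trigger moved the arm ratio was tested with edgeR's quasi-likelihood test on the 5p and 3p counts, each library with a term of its own, and Benjamini-Hochberg adjustment over all 88 pairs. No pair of the 34 passed an adjusted p of 0.05 in any comparison, against 0% of the 88 for the BCL2L11 trigger against GFP, 0% for the TRIM9 trigger against GFP and 0% for the BCL2L11 against the TRIM9 trigger. At an unadjusted edgeR p under 0.05 there were 1, 2 and 1 of the 34, beside 2, 3 and 2 of all 88, and DESeq2 and limma also passed 0. The median difference in log2 5p/3p over the 34 pairs was -0.03, 0.05 and -0.11, beside -0.07, -0.00 and -0.02 over all 88. Shifts of 17, 18 and 13 of the 34 pairs were toward 5p. The differences in arm ratio tested here and below are edgeR coefficients fitted to the counts. They need not equal the plain difference between the library values printed beside them. The median standard error of a difference was 0.46, 0.47 and 0.47. As this edgeR test returns no standard error, SE stands for the size of the coefficient divided by the square root of the F statistic. In simulated pairs of like depth, 34.9% of 2-fold changes and 90.4% of 4-fold changes were found for the BCL2L11 trigger against GFP with edgeR. Changes were placed in many of the simulated pairs, and the Benjamini-Hochberg adjustment is then milder than where few pairs change. Whether the simulated spread between libraries matched that of the real pairs was not tested. Both shares may thus be too high for these libraries, with which most 2-fold shifts would be missed. Smaller shifts were not simulated.

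With the BCL2L11 trigger, the lowest p values belonged to pairs with few reads of an arm. miR-629 was 1.05 higher in log2 5p/3p than in GFP (SE 0.45, edgeR adjusted p = 0.964), with 7.44 and 6.81 in the GFP libraries and 8.18 in both trigger libraries. miR-454 differed by -0.98 (SE 0.46, edgeR adjusted p = 0.964), with -4.71 and -4.42 in GFP and -5.95 and -5.16 with the trigger. miR-550a differed by 1.15 (SE 0.62, edgeR adjusted p = 0.964), with 2.49 and 3.29 in GFP and 4.14 and 3.91 with the trigger. In all 3 the libraries of the groups did not overlap, as was so for 9 of the 34 pairs (26.5%) and for 20.5% of the 88. For the TRIM9 trigger against GFP and between the triggers, 11 of the 34 (32.4%) did not overlap in each, beside 28.4% and 28.4% of the 88. As a reference outside these members, the pair of miR-221, an intended target, was 1.10 higher (SE 0.25, edgeR adjusted p = 0.105). Its 3p reads were 21969 and 24989 in GFP and 9830 and 10985 with the trigger. When the library sets were added to the model its edgeR adjusted p was 2.33e-04. In that model the BCL2L11 comparison passed 0 of the 34 members (1.14% of the 88). The pair of miR-222, also an intended target, had 138 reads of 5p and 131842 of 3p in all and did not pass in either model.

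With the TRIM9 trigger, miR-455 differed from GFP by -0.67 (SE 0.29, edgeR adjusted p = 0.839), with 5.53 and 5.74 in GFP and 4.92 and 5.01 with the trigger. miR-301a differed by 1.54 (SE 0.68, edgeR adjusted p = 0.839), with 3.0 and 3.76 against 4.42 and 5.93, the last value resting on 3 reads of its 3p arm. The group means of miR-301a differed by 1.79. miR-556 differed by -1.12 (SE 0.55, edgeR adjusted p = 0.839), with -0.45 and -0.56 against -1.46 and -1.82. Both trigger comparisons share the GFP libraries, and for miR-629 the TRIM9 libraries were at 7.58 and 8.56.

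Between the triggers, miR-582 had the lowest p. Its log2 5p/3p was -5.98 and -7.83 with the BCL2L11 trigger and -5.30 and -4.99 with the TRIM9 trigger. The group means differed by -1.76, and the edgeR coefficient was -1.56 (SE 0.55, edgeR adjusted p = 0.795). When the library sets entered the model the coefficient was -1.54 and passed (edgeR adjusted p = 0.0156), in a fit where 2 of the 88 pairs (2.27%) passed. Without BCL2L11 replicate 2, the library with 7 reads of the 5p arm, it was -0.83 and did not pass. Without BCL2L11 replicate 1 it was -2.66 (edgeR adjusted p = 0.0228), a value that rests on those 7 reads alone for the BCL2L11 group, which is then assumed to vary like the other groups. miR-342 differed by 1.01 (SE 0.52) and miR-550a by 1.21 (SE 0.63), both with an edgeR adjusted p of 0.964.

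**Figure D3:**
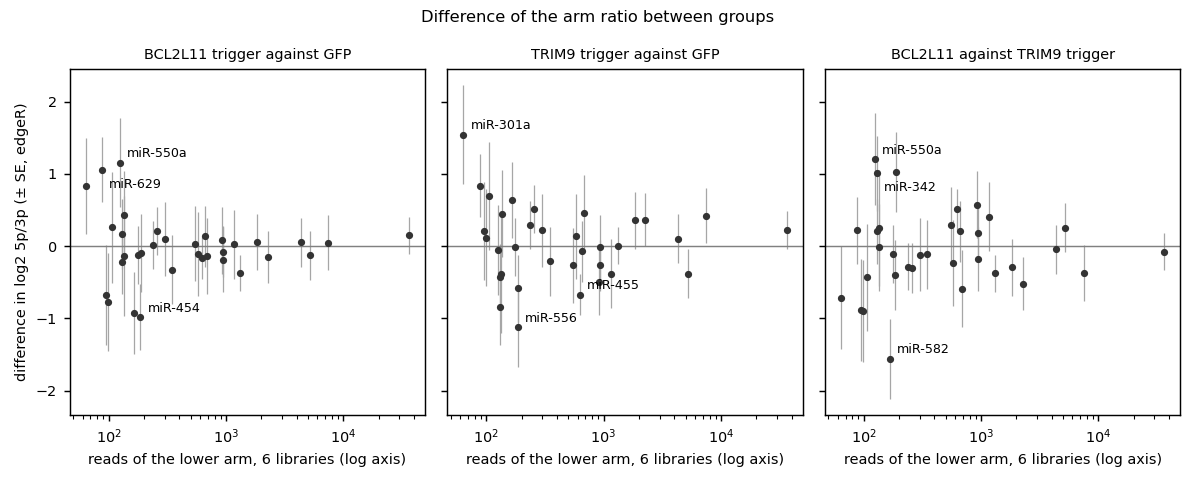
Each panel compares 2 groups. Each point is a pair, placed by the reads of its lower arm over 6 libraries (log axis) and by the difference in log2 5p/3p. Bars are ± 1 standard error, computed from the edgeR coefficient and F statistic. The 3 pairs of lowest p are named in each panel. Differences beyond 1 are found among pairs with few reads of the lower arm, and none of the 34 passed an adjusted p of 0.05.

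Single arms gave a like picture. The edgeR test passed 0 of the 68 arms for the BCL2L11 trigger (0.226% of the 443 miRNAs tested), 0 for the TRIM9 trigger (0%) and 0 between the triggers (0.226%). At an unadjusted edgeR p under 0.05 there were 0, 2 and 1 of the arms, beside 6, 20 and 12 of the 443, and DESeq2 passed 0 arms. The lowest p values were those of miR-301b-5p (log2 difference -1.07), miR-550a-3p (-1.03) and miR-365b-3p (-0.49) for the BCL2L11 trigger. For the TRIM9 trigger they were those of miR-455-3p (0.64), miR-301a-5p (0.62) and miR-629-5p (0.39), and between the triggers those of miR-582-5p (-1.46), miR-455-3p (-0.54) and miR-744-5p (0.32). The authors' deposited table of miRNA counts lists all 68 arms in both trigger comparisons and gives none an adjusted p under 0.05.

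More of the 34 pairs passed between the library sets than between the groups, but the tests are unlike. The sets were compared as 3 libraries against 3 with the groups in the model, at a median standard error of 0.34. The groups were compared as 2 against 2 without the sets in the model, at 0.46 to 0.47. The comparison of the sets was added after the ratios had been seen, and the set numbers come from the titles. Its p values therefore describe these libraries and are no independent support. In the fit with a term for the sets, 4 of the 34 pairs passed beside 9.09% of the 88 (8 pairs), 1 toward 5p in set 2 (3.41% of the 88) and 3 toward 3p (5.68%). The sets did not overlap in 9 of the 34 pairs, or 26.5%, against 29.5% of all 88, so such a split was as common outside these pairs. The calls rested on all libraries together: without GFP replicate 1 or GFP replicate 2, 2 of the 34 passed, and without BCL2L11 replicate 1 or 2 or TRIM9 replicate 1 or 2, none did, with the same direction in each of the 4 pairs.

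miR-532 had 126, 159 and 161 reads of its 3p arm in the set 1 libraries (GFP, BCL2L11, TRIM9) and 51, 52 and 28 in set 2. Its log2 5p/3p was 6.42, 6.1 and 6.07 in set 1 and 7.16, 7.31 and 8.00 in set 2, with no overlap. The difference was 1.26 (SE 0.21, edgeR adjusted p = 5.75e-07), and it no longer passed in edgeR without a TRIM9 library (0.98, adjusted p = 0.0837 or 0.0853) or without a BCL2L11 library (1.3, adjusted p = 0.461). In CPM, scaled by TMM, its 3p arm was 26.2 on average in set 1 and 8.37 in set 2, a 3.13-fold drop, while its 5p arm went from 1914 to 1499. Both arms were thus lower in set 2, the rare strand by the larger factor.

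miR-340, which lies within RNF130, a ubiquitin ligase gene, went the other way. Its 3p arm had 993, 1035 and 953 reads in set 1 and 1834, 1546 and 1104 in set 2, and its log2 5p/3p was 2.92, 2.79 and 3.41 against 2.12, 2.35 and 2.47. The difference was -0.73 (SE 0.17, edgeR adjusted p = 9.44e-04). Its 5p arm stayed at 1445 and 1432 CPM, and its 3p arm went from 175.7 to 289.4.

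miR-361, within CHM, the gene for Rab escort protein, had 1633, 1546 and 2336 reads of its 3p arm in set 1 and 2538, 2309 and 2475 in set 2. Its log2 5p/3p was -3.02, -2.82 and -3.18 against -3.67, -3.83 and -4.31, a difference of -0.93 (SE 0.22, edgeR adjusted p = 9.44e-04), and again the 3p arm was higher in set 2 in every group. miR-576, within SEC24B, a gene for a COPII vesicle coat protein, was at -2.07, -2.06 and -2.08 in set 1 and at -2.72, -2.62 and -2.51 in set 2. Its difference of -0.55 (SE 0.19, edgeR adjusted p = 0.0426) did not pass with DESeq2 (adjusted p = 0.156) or with pairs of at least 10 reads included (edgeR adjusted p = 0.149).

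**Figure D4:**
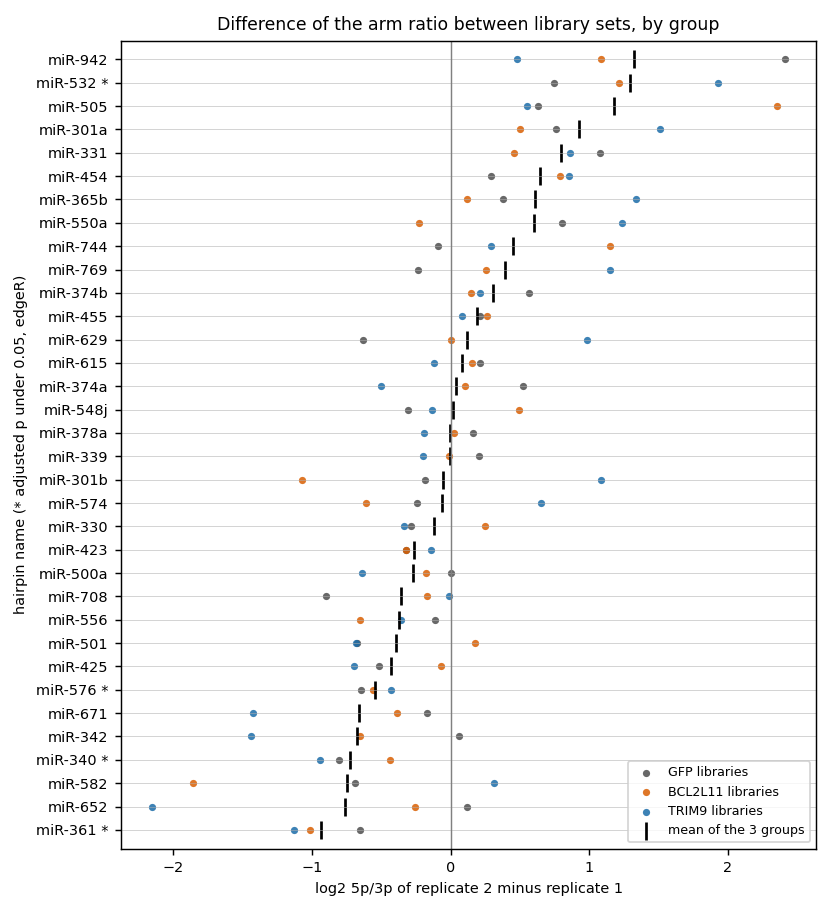
For each pair the points are log2 5p/3p of replicate 2 minus that of replicate 1 within each group (3 colours) and the bar is their mean; a star marks an edgeR adjusted p under 0.05 in the comparison of the sets. In the 4 starred pairs the 3 groups moved to the same side of 0, as they also did in several pairs without a star.

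Among single arms, 8 of the 68 passed between the sets beside 12.6% of the 443 miRNAs tested. Higher in set 2 were miR-340-3p (log2 difference 0.72) and miR-361-3p (0.59). Lower in set 2 were miR-532-3p (-1.64), miR-454-3p (-0.93), miR-574-5p (-0.74), miR-501-5p (-0.74), miR-425-5p (-0.65) and miR-532-5p (-0.36). For miR-425 the 5p arm was at 3420 CPM in set 2 against 5361 in set 1, and its 3p arm, which did not pass (edgeR adjusted p = 0.777), was at 7.28 against 8.66. The mean log2 5p/3p of miR-425 was 8.88 in set 2 and 9.31 in set 1 with no overlap, a difference that did not pass either. Without BCL2L11 replicate 1 or 2 the count of passing arms was 4 or 1, and without the TRIM9 libraries it was 10 or 12.

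Genes that process miRNAs and load or trim their strands were read in the poly-A libraries by limma on log2(FPKM + 1). The list held 22 genes in 23 gene entries, as PARN was entered under 2 identifiers. None passed for the BCL2L11 trigger or the TRIM9 trigger (0.00659% of 15183 genes in each) or between the triggers (0.0132%). At an unadjusted limma p under 0.05 there were 0 in each, beside 83, 175 and 98 of the 15183 genes. ZSWIM8 stood at 7.29 and 12.3 FPKM with GFP, 10.8 and 8.997 with the BCL2L11 trigger and 9.98 and 8.56 with the TRIM9 trigger, so the groups overlapped. Between the sets 8 of the 23 passed and all were higher in set 2, near the 32.9% of all genes that passed. Among them was DICER1, at 6.37, 5.56 and 4.16 FPKM in set 1 and 15.6, 15.9 and 13.5 in set 2, and the others were TUT7, TUT4, TENT2, ERI1, AGO1, AGO2 and AGO4. That direction depended on scaling: with FPKM rescaled by TMM the median of all genes moved from 0.06 to -0.32 and 3 of the 23 were higher and 3 lower. Over all genes, 3421 were higher and 1570 lower with FPKM as deposited, and 1212 and 4563 with the rescaling.

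Of 34 genes around the hairpins 28 were tested, and none passed in a trigger comparison. At an unadjusted limma p under 0.05 there were 0 in each, beside the same 83, 175 and 98 of all genes. Between the sets 12 of the 28 were higher and 1 was lower in set 2 with FPKM as deposited, and 4 and 4 with the TMM rescaling. Over all 15183 genes the corresponding counts were 3421 and 1570 as deposited, and 1212 and 4563 with the rescaling. Most calls over all genes were thus higher in set 2 with one scaling and lower with the other.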

How the data were processed

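HEK293T cells in 3 groups were analysed, with 2 small RNA and 2 poly-A libraries each. The submitters' processing notes name StringTie 2.1.3, DESeq2 1.20.0, STAR and cutadapt 3.4 and the build hg38, without their roles. The deposited count table holds reads per mature miRNA, not normalised. The deposited StringTie tables hold, per the file headers, FPKM and coverage signal per transcript, and FPKM was summed over the transcripts of a gene. The authors' deposited miRNA tables hold, as read from their headers, a mean signal after normalisation (partly as log10 too), a log2 fold change, a score of the test and a p-value.

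The arm ratio was fitted in edgeR 4.0.16 (R 4.3.3) on 2 columns per library, with a term for each library and arm-by-group terms, over the 88 pairs with at least 60 reads per arm, so that hairpin level and depth cancel. Single arms were fitted in edgeR (TMM, filterByExpr, glmQLFit, glmQLFTest) over 443 of 1153 miRNAs, and genes in limma 3.58.1 (trend) on log2(FPKM + 1) after a filter of FPKM 1 or more in 2 or more libraries (15183 genes). p was two-sided, with Benjamini-Hochberg adjustment within a comparison at 0.05. With 2 libraries against 2, the smallest p an exact test allows is 0.333. No ratio of the 34 pairs needed a pseudocount, the smallest count being 3. The counting error covers read numbers only. PCR copies were not removed as far as the sources used here tell. Replicates were numbered in accession order; the labels give neither pairing nor batch. Alternatives were DESeq2 1.42.0, limma on log2 ratios (plus 0.5), other read minimums, normalisations, pseudocounts and filters, a term for the library sets, the compared groups alone, and each library left out. The scripts were tested on simulated data. Python 3.11.15 and matplotlib 3.10.9 were used for counts and figures.

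Pairs with values were named by a rule: the 10 of most reads, the 5 of highest, of lowest and of nearest to 0 mean log2 5p/3p, the 5 of highest SD among pairs with at least 600 reads per arm, passing pairs of a comparison or else the 3 of lowest p, families, clusters and the pairs around the threshold. The members, lists and this rule were chosen with earlier results of these data known, and the comparison of library sets was added after seeing the ratios.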

Additional observations from a re-analysis of the deposited data

How the results depend on the processing

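In the 3 trigger comparisons no pair, arm or strand selection gene passed in any alternative run, except that the replicate block (a term for the library sets) gave 1 passing pair of the 34 between the triggers, miR-582, and leaving out each library gave 0 to 1 there, the 1 resting on a single BCL2L11 library. The 13 differences in arm ratio named in the 4 comparisons kept their direction in every alternative run. Deviations of same-set libraries from their group means correlated across the 88 pairs at 0.50, 0.27 and 0.27 between groups. This is a hint from the data only, since the labels do not pair the libraries. Among the 34 pairs, their arms and the gene lists, the block changed no other call in the trigger comparisons. Outside them it did: over all 88 pairs it passed 1 (BCL2L11 trigger), 0 (TRIM9 trigger) and 2 (between the triggers), against 0 in each without it. Over all 443 miRNAs tested it passed 5, 0 and 4, against 1, 0 and 1. With at least 300 reads per arm, 18 of the 34 pairs remained, of which 8 were led by 5p and 17 by the same arm in all 6 libraries, a drop that follows from fewer pairs. Between the library sets, leaving out each library gave 0 to 2 passing pairs instead of 4, and 1 to 12 passing arms instead of 8. A library whose partner is gone adds nothing to that comparison, so each of these fits rests on 4 libraries. For the strand selection genes the count of 8 became 5 with FPKM of at least 5 and 0 with no FPKM filter, and 3 to 13 with a library left out. For the genes around the hairpins the count of 13 became 7 with FPKM of at least 5, 0 with no FPKM filter, 8 with the TMM rescaling, and 2 to 18 with a library left out. With no filter, 39154 genes were tested between the sets and none passed; the cause was not tested. Depth limits the ratios of pairs such as miR-301a and miR-652, whose rarer arm had as few as 3 and 4 reads in a library.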

Other observations

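Across the 34 pairs, the log2 differences of the 5p and the 3p arm of a hairpin showed little relation. Pearson's r was -0.09 for the BCL2L11 trigger against GFP, -0.21 for the TRIM9 trigger against GFP, -0.21 between the triggers and 0.16 between the library sets, over 34 pairs each. The arms of a pair moved in the same direction in 20, 19, 19 and 17 of the 34. These points share libraries and their scaling, and they are given as a description with no test.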
